A study of Mus musculus with 9 samples.

Results

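The proteasome subunit genes were taken as every gene whose symbol begins with Psma, Psmb, Psmc or Psmd followed by a number, pseudogenes apart. The rule found 40 of the 20368 genes in the expression table. Of these, 37 encode the proteasome or its assembly chaperones and reached at least 1 FPKM in at least 3 of 9 libraries, the level required for testing. They comprised 7 genes of the alpha ring (Psma), 7 of the constitutive beta ring (Psmb), 3 of the immunoproteasome (Psmb8, Psmb9 and Psmb10), 6 ATPases (Psmc) and 14 non-ATPase genes (Psmd). Psma8 and Psmb11, the testis and thymus forms of a ring subunit, lay below that level, at 0.0747 to 0.543 FPKM and 0.0 to 0.0543 FPKM. Psmc3ip fits the letters of the rule but encodes a recombination factor, so it was set apart (14.1 to 32.8 FPKM, 0 calls in the tests below).

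The proteasome is the protease that degrades ubiquitin-tagged proteins. Its core is a barrel of alpha rings, which gate the entrance, around beta rings, which carry the cutting sites. The regulatory particle caps the barrel, with ATPases that unfold and thread the substrate and non-ATPase subunits that bind and remove ubiquitin. Under interferon gamma, and constantly in many immune cells, Psmb9, Psmb10 and Psmb8 take the places of the catalytic subunits Psmb6, Psmb7 and Psmb5, which changes the peptides made for display on MHC class I. Maturing erythroid cells break down much of their protein content as they become red cells.

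Spleen erythroblasts bearing both CD71 and Ter119 were sorted for RNA sequencing from C57BL/6 mice aged 4 weeks. CD71 is the transferrin receptor and Ter119 an erythroid surface antigen, and the study calls the gate erythroblast population II. The mice were wildtype, heterozygous (Dhh+/-) or knockout (Dhh-/-) for Dhh, the gene of the secreted ligand Desert hedgehog, with 3 libraries per genotype. The labels name neither the allele nor its reach across cell types, and leave unsaid if libraries stand for separate mice, so p-values measure only the spread between these libraries. Values below are FPKM, reads per kilobase of gene scaled to depth, and always run from replicate 1 to replicate 3 within a genotype.

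Dhh itself was listed at 0 in 8 of the 9 libraries, all wildtype libraries included, so its level cannot check the genotypes. All 12 erythroid markers passed the level for testing, and none was at 0 in any library. Reads recovered from the FPKM numbered 7.05 to 14.23 M per library. They fell into a shallower set below 10 M (wildtype replicates 1 and 2, heterozygous replicate 2, knockout replicate 2) and a deeper set of the other 5 libraries. Globin genes took 4.14% to 5.06% of all FPKM in the shallower set and 2.52% to 2.86% in the deeper set. Wildtype replicate 3 stood apart. It held the lowest value for all 8 B cell markers, all 7 T and NK cell markers and all 7 macrophage markers, with Cd3d and Cd3g at 0. Together with 6 neutrophil markers, none of which was lowest there, these 28 genes summed to 485 FPKM in that library, against 2701 and 3425 in the other wildtype libraries, 1514 to 2095 in the heterozygous and 1077 to 3446 in the knockout. In sorted bulk samples, fewer cells of a type and less RNA per cell cannot be told apart.

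The proteasome genes were all well expressed. Their mean over the 9 libraries ran from 16.5 FPKM (Psmb10) to 205 FPKM (Psmd4), with a median of 79.6 FPKM, against a median of 9.40 FPKM over all 9543 genes tested. Each tested member had between 103 and 4986 recovered reads in a library. The median of the class means was 101 FPKM for the alpha ring, 90.7 for the beta ring, 96.3 for the ATPases, 71.2 for the non-ATPase genes and 19.3 for the immunoproteasome genes. Among the 34 genes outside the immunoproteasome the highest mean was 7.62-fold the lowest.

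**Figure D1:**
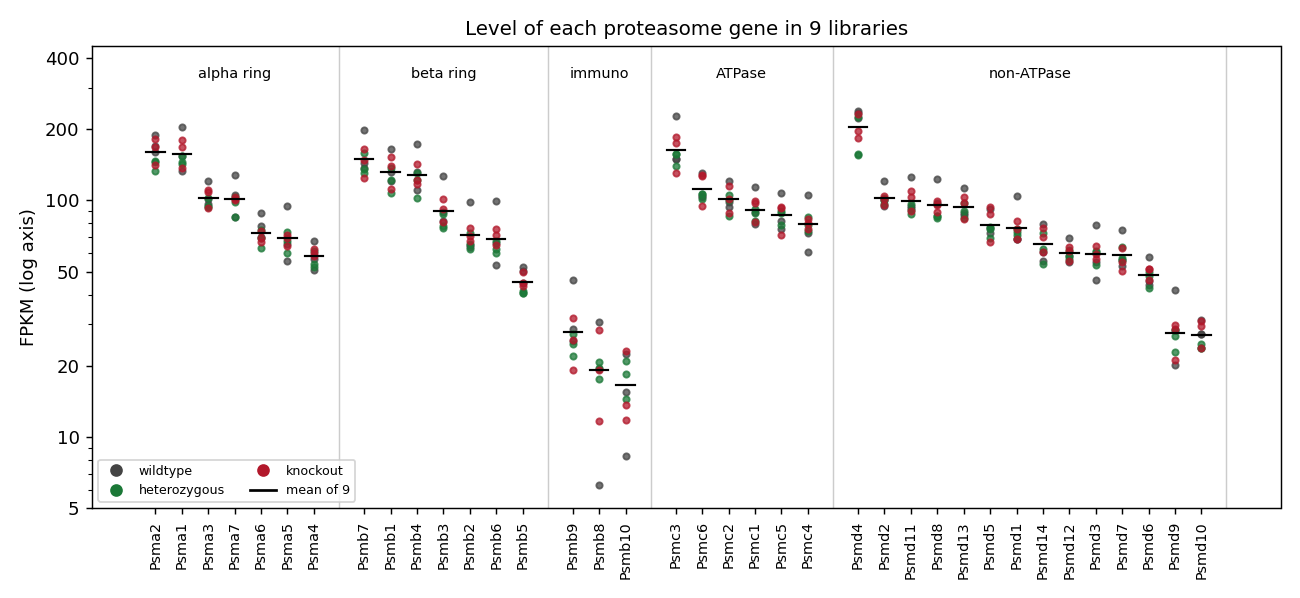
Level of each of the 37 tested proteasome genes in the 9 libraries, on a log axis of FPKM, grouped by class and ordered by mean (black bars), with points coloured by genotype. The immunoproteasome has the lowest class median (19.3 FPKM), Psmd4 the highest mean (205 FPKM), and the uppermost point of most genes is a wildtype library.

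No proteasome gene changed with genotype by the test. Limma with Benjamini-Hochberg adjustment called 0 of the 37 in knockout versus wildtype (0.0% of all genes tested called), 0 in heterozygous versus wildtype (0.0% of all genes) and 0 in knockout versus heterozygous (0.0% of all genes). The lowest limma Benjamini-Hochberg adjusted p over all 9543 genes was 0.9997, 0.9999 and 0.9996 in that order. At an unadjusted p below 0.05 the members numbered 0 of 37 in knockout versus wildtype (0.451% of all genes), 3 of 37 in heterozygous versus wildtype (1.18%) and 0 of 37 in knockout versus heterozygous (0.587%). Voom on the recovered reads also called 0 genes in each comparison. It gave 0, 2 and 0 members at an unadjusted p below 0.05, against 38, 91 and 53 of all 9543 genes. The limma 95% intervals lay within a 2-fold change either way for 36, 35 and 36 of the 37 genes. The interval reached 0.42 (log2) to each side for the median of all 9543 genes tested.

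The members' differences leaned together without passing the test. On the log2(FPKM + 1) scale, on which the change of low genes is understated, their median difference was -0.04 for knockout minus wildtype (27 lower, 10 higher), -0.12 for heterozygous minus wildtype (34 lower, 3 higher) and 0.10 for knockout minus heterozygous (4 lower, 33 higher). Over all genes tested the medians were 0.0088, -0.002 and 0.0037, with 47.3%, 50.6% and 48.9% of genes lower. The comparisons share libraries, so these counts are not separate observations. Both comparisons with wildtype moved when wildtype replicate 3 was left out, which leaves only shallower wildtype libraries. The median was then 0.10 for knockout minus wildtype (8 lower, 29 higher) and 0.01 for heterozygous minus wildtype (15 lower, 22 higher).

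Scaling also moved these medians. With each library set to the same summed FPKM, the medians were 0.03, 0.02 and 0.02, while the median of all genes itself moved to 0.06, 0.12 and -0.07, so relative to all genes the members stood at -0.04, -0.10 and 0.08. With quantile normalization they were -0.02, -0.03 and 0.01. Within the shallower set, which lacks wildtype replicate 3, the medians were -0.05 (24 lower, 13 higher), -0.06 (26 lower, 11 higher) and 0.04 (16 lower, 21 higher). Depth and that library cannot be told apart in the comparisons with wildtype, since it is the only deeper wildtype library. The medians within the deeper set were -0.23, -0.36 and 0.10. Leaving out knockout replicate 2 moved knockout minus wildtype to 0.04 (15 lower, 22 higher).

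**Figure D2:**
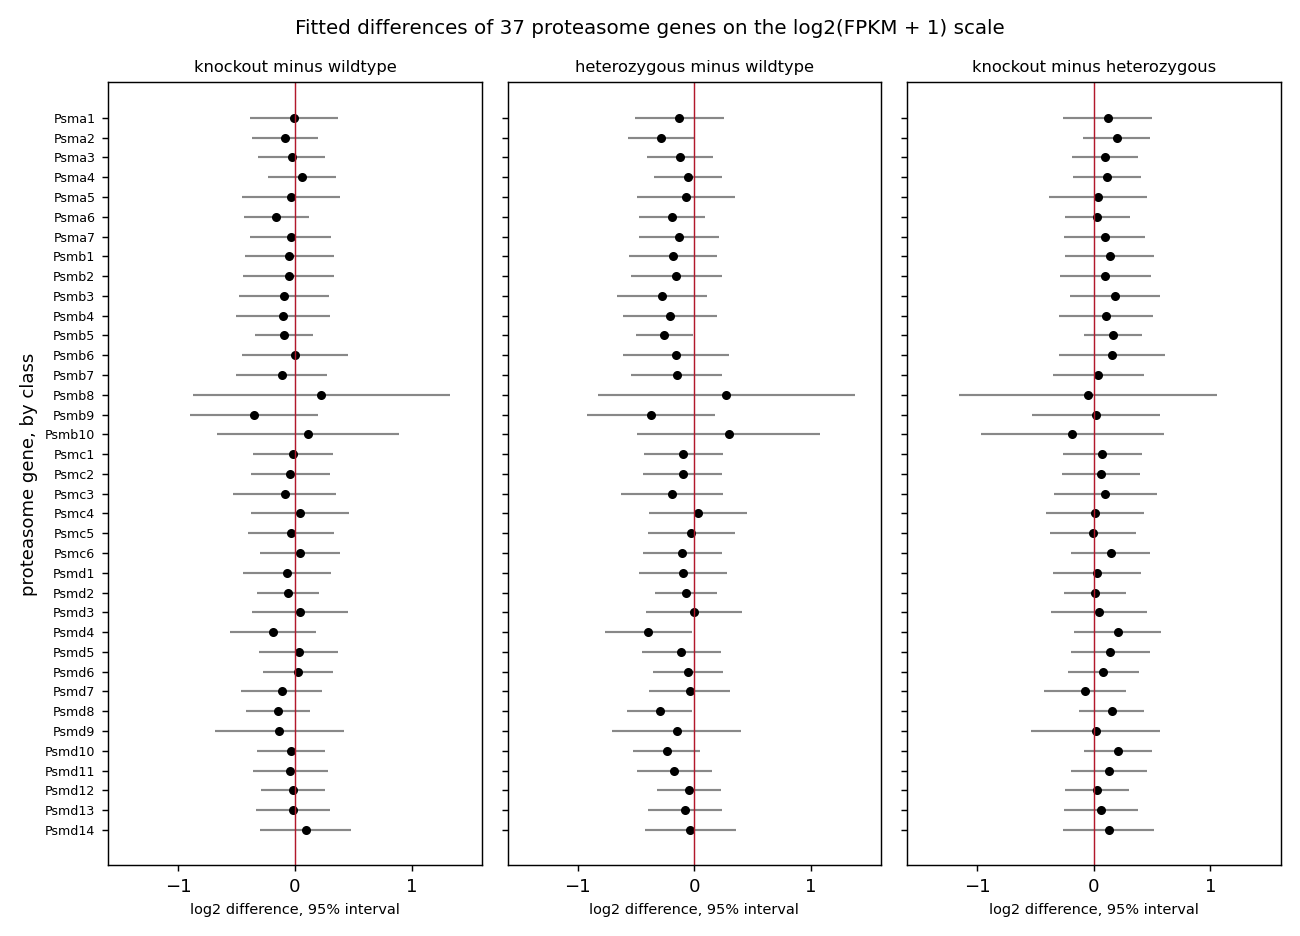
Fitted log2 difference of each of the 37 proteasome genes (points) with its 95% interval from limma (lines), for the 3 genotype comparisons on the log2(FPKM + 1) scale. The intervals of Psmb8 and Psmb10 are the widest, and only Psmb5, Psmd4 and Psmd8 in heterozygous minus wildtype have intervals that miss 0 before adjustment.

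The pattern the members shared most plainly was by library. Of the 37 genes, 33 had their highest value in wildtype replicate 3 (31.1% of all genes tested), namely all 7 alpha ring genes, all 7 constitutive beta ring genes, all 6 ATPases, 12 of 14 non-ATPase genes and Psmb9. Psmd4, Psmd5, Psmb8 and Psmb10 did not, and Psmd5 missed by a small margin (91.9 FPKM there, 93.5 in knockout replicate 3). Psmb8 and Psmb10 instead had their lowest value in that library (2 of 37, against 24.7% of all genes). With equal summed FPKM the count highest in wildtype replicate 3 was 27 of 37 (21.3% of all genes), with quantile normalization 24 of 37 (35.1%), and Psmb8 and Psmb10 were lowest there under both.

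The summed FPKM of the 37 genes was 3012, 3109 and 4012 in the wildtype libraries, 2986, 2907 and 3128 in the heterozygous and 3313, 2954 and 3411 in the knockout. As a share of all FPKM, which no factor applied to a whole library can alter, this was 0.957% in wildtype replicate 3 and 0.718% to 0.842% in the other 8. The share also split by depth, at 0.718% to 0.754% in the 4 shallower libraries and 0.828% or more in the 5 deeper ones, and the part of depth in it was not tested. The 3 genotypes overlapped. For 34 genes, all but Psmb8, Psmb10 and Psmd4, which were dropped after their values were seen, the median log2 deviation from a gene's own mean was 0.34 in wildtype replicate 3 and -0.14 to 0.09 elsewhere. Over all genes tested it was 0.06 in wildtype replicate 3. The white cell markers were lowest in this same library, and their part in the members' pattern was not tested.

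**Figure D3:**
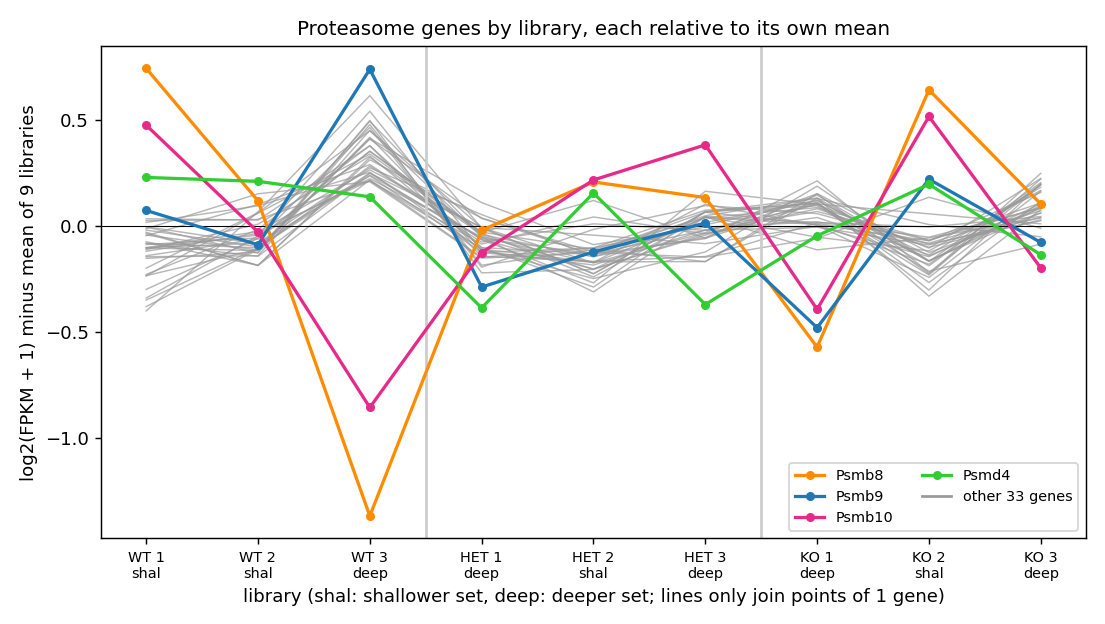
Deviation of each of the 37 proteasome genes from its own mean over 9 libraries, in log2(FPKM + 1), by library with its depth set. In wildtype replicate 3 the grey genes lie above 0 and Psmb8 and Psmb10 far below, while Psmd4 (green) is high in the 4 shallower libraries and in wildtype replicate 3.

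Depth went with a second, smaller pattern. The 4 shallower libraries were all below the 5 deeper ones for 8 of 37 genes (6.86% of all genes tested), among them 5 of 6 ATPases, with Psmd6, Psmd13 and Psmd14. They were all above for 1 of 37, Psmd4 (5.66% of all genes). With equal summed FPKM the first count was 20 of 37 (14.5% of all genes), and with quantile normalization it was 4 of 37 (5.91%).

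The alpha ring closes the barrel with the N-terminal tails of its subunits. Its members ranged from Psma4 (mean 58.0 FPKM) through Psma5, Psma6, Psma7, Psma3 and Psma1 to Psma2 (159.9 FPKM). Psma2 was measured at 161, 169.9 and 189.7 FPKM in wildtype, 147, 134 and 146 in heterozygous and 181, 142 and 169 in knockout libraries. Every heterozygous value lay below every wildtype value, while the knockout libraries spanned both groups. Its limma difference was -0.28 ± 0.13 (log2, SE) for heterozygous minus wildtype and 0.20 ± 0.13 for knockout minus heterozygous, with Benjamini-Hochberg adjusted p of 0.9999 and 0.9996.

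Psma1 stood at 134, 155 and 204 FPKM in wildtype, 146, 143 and 154 in heterozygous and 168, 137 and 179.7 in knockout libraries. Psma5 stood at 55.5, 65.7 and 94.9 FPKM in wildtype, 59.7, 67.7 and 73.3 in heterozygous and 71.3, 64.5 and 69.7 in knockout libraries. Both genes had their lowest and their highest library within the wildtype group. Psma4 varied less, from 50.7 FPKM in wildtype replicate 2 to 67.4 in wildtype replicate 3, with the other 7 libraries between 52.1 and 62.2. Psma6 had the lowest unadjusted p of the ring in knockout versus wildtype. It was measured at 70.3, 77.9 and 88.9 FPKM in wildtype, 69.4, 62.8 and 74.7 in heterozygous and 67.0, 69.7 and 74.6 in knockout libraries. The knockout values overlapped the wildtype ones, and the difference was -0.16 ± 0.12 (log2, SE, unadjusted p 0.233). The SD over the 9 libraries ran from 0.13 to 0.21 (log2) among the 7 genes, against a median of 0.22 for all genes tested.

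In the constitutive beta ring, Psmb5, Psmb6 and Psmb7 carry the chymotrypsin-like, caspase-like and trypsin-like sites, and Psmb1 to Psmb4 are structural. Psmb5 had the lowest mean of the ring (45.4 FPKM), followed by Psmb6, Psmb2, Psmb3, Psmb4, Psmb1 and Psmb7 (149 FPKM). Psmb5 was measured at 44.8, 50.4 and 52.5 FPKM in wildtype, 40.6, 41.4 and 40.8 in heterozygous and 43.4, 49.8 and 44.9 in knockout libraries. The heterozygous libraries lay together below all the others. The group means were 49.2 ± 3.94, 40.9 ± 0.406 and 46.0 ± 3.34 FPKM (SD, n = 3 each). The limma difference was -0.26 ± 0.11 (log2, SE) for heterozygous minus wildtype (unadjusted p 0.0424, Benjamini-Hochberg adjusted p 0.9999), 0.16 ± 0.11 for knockout minus heterozygous and -0.09 ± 0.11 for knockout minus wildtype.

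Psmb6 stood at 53.6, 65.9 and 99.5 FPKM in wildtype, 62.7, 59.8 and 67.2 in heterozygous and 71.5, 64.9 and 76.1 in knockout libraries. Its wildtype group held both the lowest and the highest of the 9 values. Psmb7 stood at 144, 137 and 198 FPKM in wildtype, 135, 131 and 159 in heterozygous and 148, 125 and 166 in knockout libraries. Psmb1 stood at 121, 132 and 165 FPKM in wildtype, 122, 107 and 137 in heterozygous and 139.9, 111 and 153 in knockout libraries. In both genes wildtype replicate 3 was highest and the genotypes overlapped. Annotated pseudogenes of Psmb5, Psmb6 and Psmb7 (Psmb5-ps, Psmb6-ps, Psmb6-ps2 and Psmb7-ps2) are not among the rows, and how their reads were assigned is not given in the sources used here. The levels of these 3 genes are uncertain to that extent.

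The members' promoters were searched for letters of known elements. RefSeq windows (GRCm38.p6, 250 bases before to 50 after a transcription start) matched 31 of the 37 genes in 33 windows, without Psmb1, Psmb2, Psmb7, Psmc3, Psmd3 and Psmd7. Psmb5 and Psmb6 are shown because both catalytic genes hold the antioxidant response element core, which is bound by Nfe2l1 and Nfe2l2. Of these factors, Nfe2l1 is known to raise proteasome genes when the proteasome is blocked. The stretches are the bases upstream of the start without annotated exons, 5′ to 3′ on the gene's strand, at chr14:54618023-54618245 (minus strand) for Psmb5 and chr11:70525107-70525356 (plus strand) for Psmb6. Capitals mark every match to a motif searched on either strand, here TGACNNNGC, GGAAG (read on the other strand as CTTCC) and GGGCGG (read as CCGCCC).
Psmb5: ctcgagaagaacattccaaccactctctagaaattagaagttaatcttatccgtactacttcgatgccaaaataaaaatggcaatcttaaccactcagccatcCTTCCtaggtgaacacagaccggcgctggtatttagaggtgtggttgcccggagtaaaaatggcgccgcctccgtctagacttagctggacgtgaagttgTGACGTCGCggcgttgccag
Psmb6: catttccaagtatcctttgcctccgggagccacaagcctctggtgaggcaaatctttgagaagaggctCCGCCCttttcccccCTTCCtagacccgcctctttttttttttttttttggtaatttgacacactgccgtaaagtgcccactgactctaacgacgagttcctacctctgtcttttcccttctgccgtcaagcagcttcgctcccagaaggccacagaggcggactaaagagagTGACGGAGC

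The antioxidant response element core TGACNNNGC was found in 5 of the 33 members' windows (15.2%, in Psmb5, Psmb6, Psmc6, Psmd9 and Psmd12), against 12.4% of all 32817 windows of the same length. The CCAAT box was in 36.4% of the members' windows and 37.4% of all windows. The ETS core GGAAG was in 87.9% and 71.4%, and the GC box GGGCGG in 57.6% and 35.6%. The interferon element of 2 TTTC repeats was in 9.1% of the members' windows (Psmb3, Psmd4 and Psmd9) and 3.4% of all. TTCNNNGAA, the gamma-activated site, was in 6.1% (Psmb8 and Psmd2) and 8.3%. Each was searched on both strands and counted on its own where matches overlap, and no test was run on these shares. A match is a run of letters, not a shown binding site.

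The immunoproteasome had the lowest median level of the classes and the highest median SD over the libraries (0.45, log2). Psmb8, the counterpart of Psmb5, was measured at 30.5, 19.4 and 6.30 FPKM in wildtype, 17.6, 20.7 and 19.7 in heterozygous and 11.7, 28.4 and 19.2 in knockout libraries. The wildtype group alone ran from the lowest to the highest of all 9 values, a 4.85-fold range. Psmb10, the counterpart of Psmb7, stood at 22.4, 15.5 and 8.30 FPKM in wildtype, 14.4, 18.6 and 20.9 in heterozygous and 11.8, 23.1 and 13.7 in knockout libraries. It followed Psmb8 in being lowest in wildtype replicate 3 and next lowest in knockout replicate 1. Psmb9, the counterpart of Psmb6, stood at 28.6, 25.4 and 45.9 FPKM in wildtype, 22.0, 24.8 and 27.4 in heterozygous and 19.2, 31.8 and 25.7 in knockout libraries. It parted from the other 2 in wildtype replicate 3, where it was highest.

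The differences between genotypes were within this spread. Psmb8 gave a limma difference of 0.23 ± 0.49 (log2, SE) for knockout minus wildtype, 0.28 ± 0.49 for heterozygous minus wildtype and -0.05 ± 0.49 for knockout minus heterozygous. Psmb10 gave 0.11 ± 0.35, 0.29 ± 0.35 and -0.18 ± 0.35, and Psmb9 gave -0.35 ± 0.24, -0.37 ± 0.24 and 0.02 ± 0.24. None passed limma with Benjamini-Hochberg adjustment, and the lowest unadjusted p of the 9 was 0.157 (Psmb9, heterozygous versus wildtype). Wildtype replicate 3 set the sign for Psmb8 and Psmb10. Without it, knockout minus wildtype was -0.37 for Psmb8 and -0.25 for Psmb10, and heterozygous minus wildtype was -0.32 and -0.07. For Psmb9 both differences from wildtype stayed below 0 without it, at -0.10 for knockout and -0.12 for heterozygous. Leaving out knockout replicate 2 also turned knockout minus wildtype, to -0.07 for Psmb8 and -0.16 for Psmb10.

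Relative to its constitutive counterpart, Psmb8 reached 68.1%, 38.6% and 12.0% of Psmb5 in wildtype, 43.2%, 50.1% and 48.2% in heterozygous and 26.9%, 57.0% and 42.8% in knockout libraries. Psmb10 reached 15.6%, 11.4% and 4.19% of Psmb7 in wildtype, 10.7%, 14.2% and 13.2% in heterozygous and 7.98%, 18.5% and 8.25% in knockout libraries. Psmb9 reached 53.3%, 38.6% and 46.1% of Psmb6 in wildtype, 35.2%, 41.5% and 40.7% in heterozygous and 26.8%, 49.0% and 33.7% in knockout libraries. The means overlapped for each pair, at 39.6% ± 28.0, 47.2% ± 3.54 and 42.2% ± 15.1 (SD, n = 3 each; wildtype, heterozygous, knockout) for Psmb8. They were 10.4% ± 5.77, 12.7% ± 1.81 and 11.6% ± 5.99 for Psmb10, and 46.0% ± 7.36, 39.1% ± 3.47 and 36.5% ± 11.3 for Psmb9.

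Psmb8 and Psmb10 met the white cell markers at both ends of the range, but not between. The 28 markers summed lowest in wildtype replicate 3 (485 FPKM) and next in knockout replicate 1 (1077 FPKM), the same order as the Psmb8 and Psmb10 percentages, and highest in knockout replicate 2 (3446 FPKM) and wildtype replicate 1 (3425 FPKM), the libraries with the highest percentages. Between these, wildtype replicate 2 had the next highest marker sum (2701 FPKM) but the third lowest Psmb8 percentage (38.6%), and knockout replicate 3 (2184 FPKM) had the third lowest Psmb10 percentage (8.25%). The Psmb9 percentage was also highest in wildtype replicate 1 and knockout replicate 2 and lowest in knockout replicate 1, but not low in wildtype replicate 3. White cells are known to express these genes, and the part of white cell RNA in the result was not tested.

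**Figure D4:**
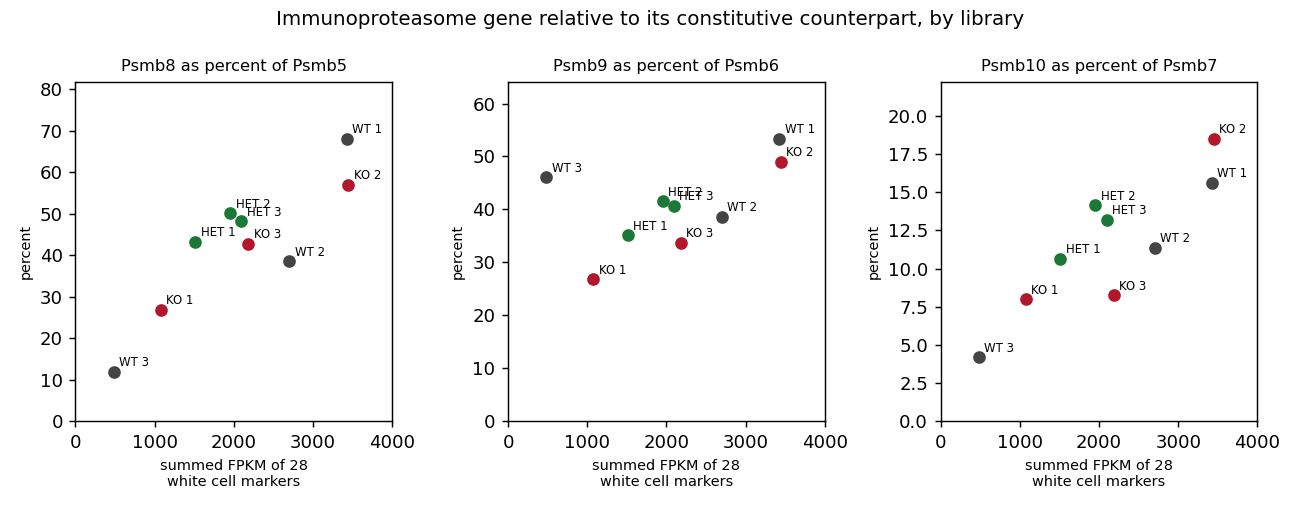
Psmb8, Psmb9 and Psmb10 as a percentage of Psmb5, Psmb6 and Psmb7 in each library (points, coloured by genotype as wildtype grey, heterozygous green, knockout red), against the summed FPKM of 28 white cell markers. Wildtype replicate 3 is at the lower left for Psmb8 (12.0%) and Psmb10 (4.19%) but at 46.1% for Psmb9.

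Psmb8 and Psmb9 lie in the MHC region of chromosome 17 beside Tap1 and Tap2, which encode the peptide transporter of class I antigen display. Psmb9 (chr17:34181987-34187764, minus strand, mm10), Tap1 (chr17:34187553-34197225, plus), Psmb8 (chr17:34197721-34201454, plus) and Tap2 (chr17:34203527-34216321, plus) span 34.3 kb. The starts of Psmb9 and Tap1 in RefSeq are 226 bases apart and point away from each other. The annotated genes share 212 bases, and whether the counting used strand is not given in the sources used here. Reads there could be given to either gene. The 30 bases around the GC box that lies between both starts are printed because Psmb9 and Tap1 were highest in the same library, at chr17:34187368-34187397 (minus strand) with GGGCGG in capitals.
Psmb9 and Tap1: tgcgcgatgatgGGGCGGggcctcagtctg

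Tap1 was measured at 21.1, 26.5 and 45.3 FPKM in wildtype, 30.5, 26.5 and 26.4 in heterozygous and 25.2, 33.0 and 30.2 in knockout libraries. Like Psmb9, it was highest in wildtype replicate 3. Tap2 stood at 17.6, 15.6 and 17.9 FPKM in wildtype, 14.9, 17.9 and 16.0 in heterozygous and 14.1, 22.4 and 15.6 in knockout libraries, and was highest in knockout replicate 2. Psmb8, which lies between them, was lowest in wildtype replicate 3. Neighbours within this locus thus stood on opposite sides of their range in that library.

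**Figure D5:**
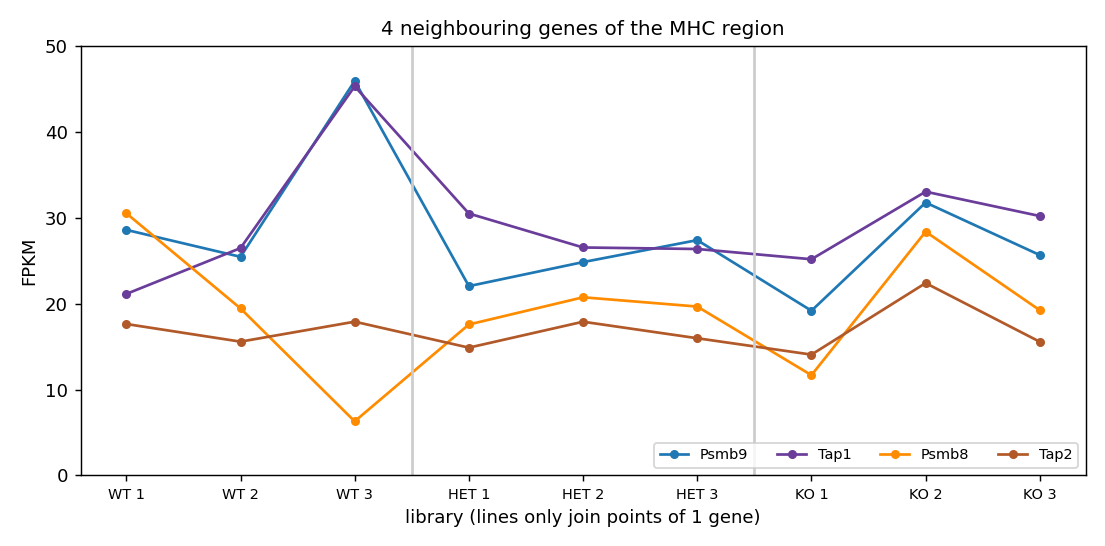
FPKM of Psmb9, Tap1, Psmb8 and Tap2, neighbours on mouse chromosome 17, in the 9 libraries. In wildtype replicate 3 Psmb9 (45.9 FPKM) and Tap1 (45.3 FPKM) are at their highest and Psmb8 (6.30 FPKM) at its lowest.

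A list of 18 genes of antigen processing and the interferon gamma axis passed the level for testing in full. Limma with Benjamini-Hochberg adjustment called 0 of them in each comparison, against 0 of all genes. Of the 18, 4 were highest (31.1% of all genes tested) and 5 lowest (24.7%) in wildtype replicate 3, both near the share over all genes. B2m and H2-D1, the class I light chain and a class I heavy chain and the most abundant of the list, were among the highest there (1164 and 458 FPKM). Irf1, an interferon-response factor, was among the lowest, at 14.0, 8.99 and 3.74 FPKM in wildtype, 9.44, 9.26 and 9.24 in heterozygous and 6.07, 12.2 and 9.68 in knockout libraries. Irf8, Stat2 and Calr were also at their lowest there.

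The ATPases form the ring that unfolds substrates, and Psmc1, Psmc3 and Psmc4 have the C-terminal motif known to open the gate of the alpha ring. Their means ran from Psmc4 (79.6 FPKM) through Psmc5, Psmc1, Psmc2 and Psmc6 to Psmc3 (164 FPKM). Psmc3 was measured at 150.4, 149 and 228 FPKM in wildtype, 157, 140.4 and 157 in heterozygous and 175, 131 and 186 in knockout libraries. The shallower libraries (131 to 150.4 FPKM) were all below the deeper ones (157 to 228 FPKM), whatever the genotype. Its limma difference was -0.09 ± 0.19 (log2, SE) for knockout minus wildtype and -0.19 ± 0.19 for heterozygous minus wildtype, and without wildtype replicate 3 both turned, to 0.11 and 0.01.

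Psmc6 stood at 105, 103 and 131 FPKM in wildtype, 106, 101 and 106 in heterozygous and 129, 95.0 and 127 in knockout libraries. Psmc4 stood at 60.4, 73.1 and 105 FPKM in wildtype, 85.3, 74.2 and 78.6 in heterozygous and 80.0, 76.0 and 83.8 in knockout libraries. Psmc5 stood at 81.7, 75.6 and 107 FPKM in wildtype, 88.4, 79.0 and 90.1 in heterozygous and 92.9, 71.4 and 93.4 in knockout libraries. All 3 genes, with Psmc2, kept the same split by depth as Psmc3, and the genotypes overlapped. Psmc6 had the lowest unadjusted p of the class in knockout versus heterozygous, at 0.15 ± 0.15 (log2, SE, unadjusted p 0.356). Psmc1 alone did not split by depth.

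The non-ATPase genes include the lid, the ubiquitin receptor Psmd4, the deubiquitinase Psmd14, the scaffolds Psmd1 and Psmd2, and the chaperones Psmd5, Psmd9 and Psmd10, which help assemble the base and leave before the particle is complete. Psmd4 was the highest gene of all members, at 238, 235 and 223 FPKM in wildtype, 155, 226 and 157 in heterozygous and 196, 233 and 185 in knockout libraries. The 4 shallower libraries (226 to 238 FPKM) were all above the 5 deeper ones (155 to 223 FPKM), and heterozygous replicate 2, the shallowest library, overlapped the wildtype group. Its limma difference for heterozygous minus wildtype was -0.39 ± 0.16 (log2, SE; unadjusted p 0.0398, Benjamini-Hochberg adjusted p 0.9999). The globin share was likewise higher in the shallower set, and its part in the level of Psmd4 was not tested.

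Psmd4 departed from the other members, so its upstream stretch is shown, at chr3:95042615-95042864 (minus strand, GRCm38.p6). Capitals mark the ETS core, the CCAAT box (read on the other strand as ATTGG) and the interferon element, and the window holds neither the antioxidant core nor the GC box.
Psmd4: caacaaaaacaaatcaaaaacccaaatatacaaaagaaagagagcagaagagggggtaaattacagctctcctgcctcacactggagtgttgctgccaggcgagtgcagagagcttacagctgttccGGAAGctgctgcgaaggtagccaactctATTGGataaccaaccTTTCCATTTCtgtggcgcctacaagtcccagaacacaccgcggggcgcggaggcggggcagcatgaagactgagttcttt

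Psmd8, a lid subunit, stood at 97.3, 96.9 and 124 FPKM in wildtype, 86.0, 84.5 and 85.9 in heterozygous and 96.0, 89.8 and 99.9 in knockout libraries. The 3 heterozygous libraries were the lowest of the 9 and lay close together. The means were 106 ± 15.4, 85.5 ± 0.808 and 95.2 ± 5.11 FPKM (SD, n = 3 each). Limma gave -0.30 ± 0.12 (log2, SE) for heterozygous minus wildtype (unadjusted p 0.0369, Benjamini-Hochberg adjusted p 0.9999), 0.15 ± 0.12 for knockout minus heterozygous and -0.15 ± 0.12 for knockout minus wildtype. Psmd10, the chaperone also called gankyrin, stood at 27.3, 27.4 and 31.2 FPKM in wildtype, 24.8, 23.7 and 23.8 in heterozygous and 29.5, 23.8 and 31.0 in knockout libraries. Its heterozygous values were below all wildtype values, and heterozygous replicate 1 lay above knockout replicate 2, with differences of -0.24 ± 0.13 (log2, SE) for heterozygous minus wildtype and 0.20 ± 0.13 for knockout minus heterozygous.

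Psmd2, which docks ubiquitin shuttle proteins, was the steadiest member, with an SD of 0.10 (log2) over 9 libraries. It stood at 100.5, 95.1 and 121 FPKM in wildtype, 96.6, 103 and 100.4 in heterozygous and 101, 95.7 and 105 in knockout libraries. Psmd9 was the most variable outside the immunoproteasome (SD 0.30, log2), at 20.2, 28.3 and 41.9 FPKM in wildtype, 26.8, 23.0 and 28.3 in heterozygous and 29.7, 21.3 and 28.6 in knockout libraries. Its wildtype libraries alone spanned the whole range. The other 9 non-ATPase genes had means between 48.6 FPKM (Psmd6) and 99.2 FPKM (Psmd11).

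Across the 3 comparisons, few members separated the genotypes completely. Heterozygous libraries were all below wildtype for 4 of 37 (Psma2, Psmb5, Psmd8 and Psmd10; 3.07% of all genes tested) and all above for none (1.29%). Knockout libraries were all above heterozygous for 2 of 37 (Psmb5 and Psmd8; 2.61%) and all below for none (1.88%). Knockout and wildtype separated for none, either higher (1.08%) or lower (1.4%). Heterozygous libraries all below wildtype numbered 4 of 37 with quantile normalization and 0 of 37 with equal summed FPKM. Knockout above heterozygous numbered 1 with quantile normalization and 0 with equal summed FPKM. The shares over all genes were not counted under these 2 scalings, so these counts cannot be set against them.

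The machinery around the proteasome was read from a list of 38 genes, of which 36 were found and all 36 were tested. Limma with Benjamini-Hochberg adjustment called 0 of the 36 in each comparison. Of the 36, 14 were highest in wildtype replicate 3 (31.1% of all genes tested), which is near the share over all genes. Among the proteasome genes it was 33 of 37, and no test of that difference was run. Among assembly factors Pomp (mean 59.0 FPKM), which matures the core, and Psmg2 (26.3 FPKM), which pairs alpha subunits, were highest there. The unfoldase Vcp (139 FPKM) was not, while the receptor Adrm1 (73.2 FPKM) and the lid peptide Shfm1 (129 FPKM) were. Mafk (79.0 FPKM) and Mafg (52.2 FPKM), the small Maf partners of Nfe2l1 and Nfe2l2, were the most abundant of the transcription list, none of whose 6 genes was highest in that library.

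The activator Psme3 and the ubiquitin gene Ubb split by depth in the way Psmd4 did. Psme3, the nuclear cap of the core, stood at 676, 649 and 422 FPKM in wildtype, 395, 644 and 438 in heterozygous and 485, 607 and 506 in knockout libraries. Ubb stood at 1229, 1115 and 744 FPKM in wildtype, 556, 1127 and 531 in heterozygous and 669, 1180.3 and 691 in knockout libraries. In both, the 4 shallower libraries lay above the 5 deeper ones, as for 2 of the 36 genes in all (5.66% of all genes tested), while 3 of the 36 were the other way round (6.86% of all genes). Both counts are near the share over all genes. Psme1 (mean 128 FPKM), of the interferon-inducible cap, overlapped between the sets. Ubiquitin genes have near-identical copies, so their reads may be shared.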

How the data were processed

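The authors deposited 1 table of FPKM values with a column per library. Per the submitters' processing notes, TopHat, Picard, DESeq2 and mm10 were used, without versions or roles, and FPKM and RPKM cannot be told apart. The deposited FPKM were whole multiples of a step per gene for all 14147 genes above 0 in at least 2 libraries (within 0.05 of a read), which gave the reads per library. The libraries' factors matched median-of-ratios size factors, so a shift in composition between libraries can move all values of a library. Positions come from GENCODE M21 on mm10, which held all 40 genes.

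On log2(FPKM + 1), one limma model (3.58.1, run in R 4.3.3) with a term for each genotype took in the 9 libraries and the 9543 genes that reached 1 FPKM in 3 or more of them (eBayes with a trend), with Benjamini-Hochberg adjusted p below 0.05 as the threshold, 2-sided. The test was tried on simulated data with less spread per gene than these libraries show and no split by depth. That trial does not show what size of change could be found here. Other steps ran in Python 3.11.15 (pandas 2.3.3, numpy 2.4.6), and figures in matplotlib 3.10.9. Members, gene lists and the naming rule were chosen with earlier results of these data known. The rule gave the catalytic and immunoproteasome genes, the 2 highest and 2 lowest means of each class, the lowest unadjusted p per class and comparison, called members, members whose groups do not overlap, and the 2 most abundant genes of each list, some of which are not reported here. Psmd5 and Irf1 were named after their values were seen. Of the lists, Paaf1 and Ddi2 were not matched.

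Same-numbered libraries were checked for shared deviations from the group means. For replicates 1, 2 and 3 the correlations were 0.20, 0.18 and 0.41 between knockout and heterozygous, which were taken as paired on these values alone. They were -0.57, 0.51 and 0.33 between knockout and wildtype, and 0.13, 0.18 and 0.00 between heterozygous and wildtype. The labels name no litter, day or batch, and the main fit used no pairing. Same-numbered knockout and heterozygous libraries also fall in the same depth set, so depth and a pairing cannot be told apart. Alternatives were quantile normalization, equal summed FPKM, a pseudocount of 0.1, no filter, no trend, only the libraries of a pair, the replicate block, a depth term, only deeper libraries, voom, and libraries left out.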

Additional observations from a re-analysis of the deposited data

How the results depend on the processing

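In each comparison 20 alternatives were run. The 0 calls, of genes and of members, held under all of them except in only the deeper libraries, where wildtype replicate 3 is the lone wildtype library and is assumed to vary like the others. There 929 of 9543 genes and 2 of 37 members were called in knockout versus wildtype (members' median -0.23). In heterozygous versus wildtype 1864 of 9543 genes and 14 of 37 members were called (median -0.36). These counts rest on 1 wildtype library, and the members' share was not tested against that of all genes. With wildtype replicate 3 and knockout replicate 2 left out together, the knockout versus wildtype median was 0.18. The lowest limma Benjamini-Hochberg adjusted p over all genes was then 0.0598, against 0.9997 in the main fit. At an unadjusted limma p below 0.05 were 2097 of 9543 genes and 10 of 37 members, against 43 and 0 in the main fit. The wildtype libraries left are all shallower and the knockout ones all deeper, so genotype and depth cannot be told apart there. The cause was not tested. The replicate block changed no call in any comparison. It left the paired knockout versus heterozygous members' median at 0.0954. Every genotype holds each replicate number, so the block cannot move a difference of group means, and the unchanged median says nothing about pairing.

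Leaving out 1 library at a time, the calls of genes and of members stayed at 0 in all 3 comparisons, while the members' median ran from -0.1386 to 0.1017 (knockout minus wildtype), from -0.2175 to 0.0126 (heterozygous minus wildtype) and from 0.0316 to 0.1481 (knockout minus heterozygous). In the same order of comparisons, the log2 difference ran from -0.3729 to 0.6824, -0.3238 to 0.7316 and -0.3410 to 0.2655 for Psmb8, and from -0.2485 to 0.4171, -0.0656 to 0.6000 and -0.4535 to 0.0012 for Psmb10. It ran from -0.1463 to 0.2037 for Psmb9 in knockout minus heterozygous, and for Psmc3 from -0.1917 to 0.1128 and from -0.2919 to 0.0126 in the comparisons with wildtype.

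With wildtype replicate 3 and knockout replicate 2 left out together, signs reversed for Psmb8 (-0.6648 and -0.3238 against wildtype, knockout then heterozygous), Psmb10 (-0.5191 and -0.0656), Psmc3 (0.2653 and 0.0126), Psmd8 in knockout minus wildtype (0.0117) and Psmb9 in knockout minus heterozygous (-0.1463). Psmb9 also reversed there with equal summed FPKM (-0.0559) and in only the deeper libraries (-0.1414). The cause was not tested.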
